A study of Drosophila melanogaster with 4 samples.

Results

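The regions described here are the H3K27ac peaks that were called in Cut knockdown neuroblast nuclei and had no overlapping peak in control nuclei. They were chosen from the knockdown H3K27ac list by a width (end minus start) under 3000 bp and 0 bp of overlap with any control H3K27ac peak, on the 6 arms analysed (2L, 2R, 3L, 3R, X and 4). This gave 8610 knockdown-only peaks of the 25519 knockdown H3K27ac peaks on these arms. The series holds 74390 peaks in its 4 lists there. Since both H3K27ac lists chose the peaks, H3K27ac values at them are a description and support nothing, whereas H3K27me3 was not used in the choice.

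Each list came from 1 chromatin immunoprecipitation and sequencing library of Drosophila melanogaster embryos, for H3K27ac and H3K27me3 in the genotype labelled Cut_KD and in the genotype labelled Control. In Cut_KD, the homeodomain factor Cut, encoded by ct, was depleted by RNA interference, and the labels do not name the interfering line or the control line. Embryos of both genotypes were collected for 16 h (25 °C), and their nuclei were sorted by dsRed under wor-gal4, a driver that per the labels works in the nervous system once embryos reach stage 11. Sorted nuclei made up about 0.5 to 3% of embryonic nuclei, with a purity of at least 50%, so other cells are included. With 1 library per genotype and mark, differences between genotypes have no replicate check and are given with no p-value, and the depth of the libraries is unknown.

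H3K27ac is an acetyl mark laid down by the Nejire (CBP) acetyltransferase at active promoters and enhancers. H3K27me3 is a methyl mark laid down on the same lysine by Polycomb repressive complex 2, so 1 histone tail cannot carry both, although a cell population can. Neuroblasts, from which the fly nervous system is built, die in set segments under Hox genes and the cell death genes rpr, grim, hid and skl.

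H3K27ac did not single out the labelled cell type. Of 12 neuroblast markers, 12 had H3K27ac (a peak over the gene or up to 500 bp off) in the knockdown and 10 in the control, where ase and pon had none. Markers of other cell types also carried the mark: all 10 neuron and 6 glia markers in both genotypes, and 8 of 10 muscle and mesoderm markers in the knockdown and 10 in the control. The summed H3K27ac cover was 39.3 kb in the knockdown and 39.0 kb in the control for neuroblast markers. For neuron markers it was 30.0 and 41.1 kb, for muscle and mesoderm markers 29.6 and 51.4 kb, and for glia markers 10.7 and 13.9 kb, in the knockdown and the control. For epidermis and trachea markers it was 38.4 and 53.2 kb, and for gut, blood and fat markers 30.5 and 47.0 kb. The part that such cells have in the results below was not tested. The share of all genes with H3K27ac is not given here, so the marker counts have no background beside them. The lists also overlap: grh is a neuroblast and an epidermis and trachea marker. The gene ush is in the epidermis and trachea list and in the gut, blood and fat list. Per the labels, the 2 antibodies share a catalogue number, which was not resolved here.

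The knockdown-only peaks were narrower than the other H3K27ac peaks under 3000 bp. Their median width was 315 bp (quartiles 207 and 506 bp), against 495 bp for the 16763 knockdown peaks under 3000 bp that overlapped a control peak, called shared peaks here. The 10798 control-only peaks, chosen in the same way from the control list, had a median width of 486 bp. The width bound removed nothing, since each of the 146 knockdown peaks of 3000 bp or more overlapped a control peak. The widest knockdown-only peaks spanned 2456 bp at ko, 2261 bp near CG17350 and 2209 bp at Remo, and the narrowest peaks outside the bound spanned 3000, 3002 and 3004 bp. The narrowest peak was 124 bp in the knockdown list and 156 bp in the control list. Below 156 bp lay 12.7% of the knockdown-only and 5.23% of the shared peaks, and no peak of the control list was so narrow.

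The authors' fold enrichment over background, a value of each peak, had a median of 2.12 in the knockdown-only peaks, 2.14 in the shared peaks and 1.91 in the control-only peaks, the last on the scale of another library. The -log10 q reached 2 in 15.2% of the knockdown-only peaks and in 22.4% of the shared peaks. The nearest control peak lay a median of 1328 bp from a knockdown-only peak, and the nearest knockdown peak a median of 1784 bp from a control-only peak. A control peak lay within 1 kb of 3460 knockdown-only peaks (40.2%, 95% exact Clopper-Pearson interval 39.2 to 41.2%), and none lay within 10 kb of 253 (2.94%, 2.59 to 3.32%). These intervals, and all those below, cover counting error only. The H3K27ac peaks covered 14.8 Mb in the knockdown and 22.2 Mb in the control, and the share of peaks without a partner depends on the cover of the other list.

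**Figure D1:**
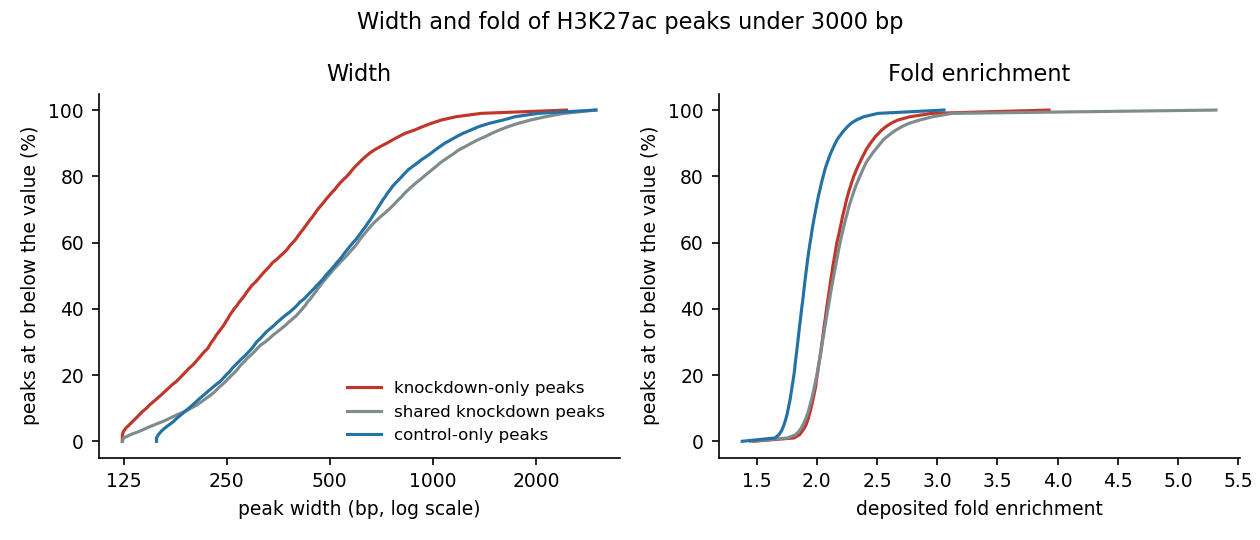
Percentage of peaks (vertical axis) at or below a given width in bp (left, log scale) or deposited fold enrichment (right), for knockdown-only, shared knockdown and control-only H3K27ac peaks under 3000 bp. The curve of the knockdown-only peaks lies left of the others in width (median 315 bp) and close to that of the shared peaks in fold (medians 2.12 and 2.14).

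The X chromosome held more knockdown-only peaks for its list than the other arms. On X, 1636 of 3547 knockdown H3K27ac peaks under 3000 bp were knockdown-only (46.1%, 44.5 to 47.8%), against 6974 of 21826 on the other 5 arms (31.95%, 31.3 to 32.6%). The background over all arms was 33.9%. Arms other than X ranged from 29.6% on 2R to 34.2% on chromosome 4, which has 76 such peaks. In the control list, control-only peaks were 46.8% (45.0 to 48.5%) of X and 42.1% (41.4 to 42.8%) of the other arms, a smaller gap. X thus held 19.0% of the knockdown-only, 11.4% of the shared and 14.1% of the control-only peaks. H3K27ac covered 2100 kb of X in the knockdown and 2559 kb in the control, and 4128 and 6224 kb of 3R. Where -log10 q reached 2, the knockdown-only share was 31.3% on X and 25.1% elsewhere. A difference between genotypes on X cannot be told apart from one between the 2 libraries, and the cause was not tested.

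**Figure D2:**
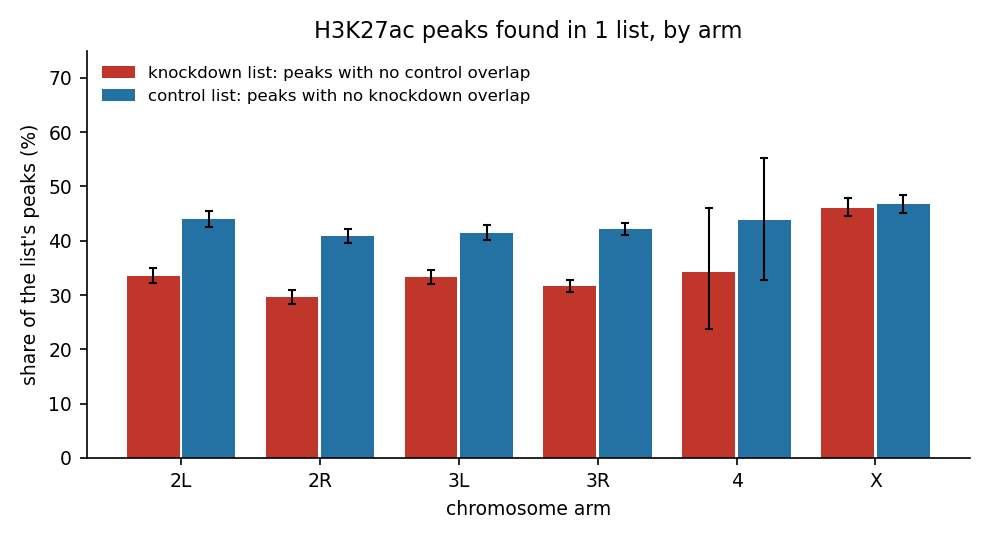
Share of the H3K27ac peaks under 3000 bp (vertical axis, %) that had no overlapping peak in the other genotype, by chromosome arm, for the knockdown list (left bars) and the control list (right bars). Error bars are 95% exact binomial intervals; the knockdown bar of X, at 46.1%, stands above those of 2L, 2R, 3L and 3R, and the interval of chromosome 4 is wide.

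Some knockdown-only peaks lay in runs, a run being a row of neighbouring knockdown H3K27ac peaks that are all knockdown-only. Of 5057 runs, 3078 were single peaks and 819 had 3 or more. Of the 27 runs of 8 or more peaks, 11 lay on X and the rest on other arms. Runs come from the calls that chose the peaks, and a higher share on an arm brings longer runs there, so they add nothing to the share on X and serve here to locate peaks. The longest, of 18 peaks over 157 kb (X:2799602-2956396), covered part of kirre, which encodes an immunoglobulin protein of myoblast fusion, and reached rst. H3K27me3 overlapped 2 of its 18 peaks in the knockdown and 0 in the control. A run of 11 peaks over 278 kb (X:7394033-7671550) ended in ct, the knocked-down gene, and H3K27me3 overlapped 6 of them in the knockdown and 1 in the control. Another run of 11 lay at the pair-rule gene run (X:20694714-20747187), with H3K27me3 at 10 in the knockdown and 2 in the control.

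To see where the knockdown-only peaks sit, their distance to 13922 protein-coding gene spans was measured. Of the 8610, 6300 overlapped a gene span (73.2%, 72.2 to 74.1%), against 80.8% (80.2 to 81.4%) of the shared and 70.5% (69.6 to 71.4%) of the control-only peaks. Another 189 lay outside a span by 500 bp or less and 1112 lay more than 5 kb away (12.9%). The 2310 peaks off the spans lay a median of 4754 bp from the nearest gene, and 249 of them overlapped another gene of the table, such as one for a long non-coding RNA. An end of a gene lay inside or within 500 bp of 23.2% (22.4 to 24.2%) of the knockdown-only peaks, 35.3% (34.6 to 36.1%) of the shared and 21.4% (20.6 to 22.2%) of the control-only peaks. The gene table gives no strand, so gene starts and gene ends cannot be told apart. Knockdown-only and control-only peaks were thus both on gene spans, and near gene ends, less often than the shared peaks.

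The strongest knockdown-only peaks had another place than the rest. Of the 100 with the highest fold (2.91 or more), 87 overlapped a gene span and 62 had a gene end inside or within 500 bp (51.8 to 71.5%), against 23.2% of all 8610. Their median width was 166.5 bp. Since fold chose them, only their position is new information. Shared and control-only peaks were not ranked by fold, so whether their strongest peaks lie in like places was not tested. The highest fold, 3.93, belonged to a peak of 171 bp at MESK2 (2R:21502146-21502316), 49 bp from a gene end and 672 bp from a control peak. Next came Hmgs, which encodes the HMG-CoA synthase of the mevalonate pathway (fold 3.89, 134 bp, 2R:16336824-16336957), and CG7220 (3.77, 452 bp), which had the highest -log10 q of the knockdown-only peaks, 8.88. CG7611 (3.67), the carnitine acetyltransferase gene CRAT (3.66), the splicing factor gene Son (3.61) and nonA, which encodes an RNA-binding protein (3.58, X:16361642-16361893), followed. Pldn, a gene of lysosome-related organelle formation (3.55), CG11590 (3.54) and Rnb (3.53) completed the first 10.

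Of these 10 peaks, H3K27me3 of the knockdown overlapped that of Hmgs, over 5 bp, and H3K27me3 of the control overlapped none. Farther down the order by fold, H3K27me3 of the knockdown overlapped 27% of the first 100, 29.4% of the first 500 and 30.4% of the first 1000, against 34.3% of all 8610. For H3K27me3 of the control the shares were 2%, 2% and 3.5%, against 6.19%. The first 100, 500 and 1000 were also narrower, with median widths of 166.5, 194.5 and 232.5 bp against 315 bp for all. Of all knockdown-only peaks under 200 bp, 26.9% overlapped H3K27me3 of the knockdown and 5.87% that of the control. The part of width in this order was not tested. Among peaks with no control H3K27ac within 1 kb, the first 10 by fold also held Grx1, a glutaredoxin gene (3.43), nAChRalpha4, an acetylcholine receptor subunit gene (3.42), and simj, which encodes a subunit of the NuRD remodelling complex (3.35). The simj peak had 173 of its 260 bp in H3K27me3 in the knockdown and none in the control. The tenth, of 3.31, lay on CG6153 and the neighbouring end of CCT4. By -log10 q, the fifth (6.87) was a peak of 997 bp in the proximal part of 2R (2R:1825697-1826693). It lay 39387 bp from the nearest protein-coding gene, CG17684, and had a fold of 1.72 and 887 bp under H3K27me3 in the knockdown only.

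H3K27me3 was then read at the knockdown-only peaks in each genotype. A peak was counted when at least 1 bp overlapped a H3K27me3 peak. H3K27me3 of the knockdown overlapped 2957 of the 8610 (34.3%, 33.3 to 35.4%), against a background of 52.5% for all knockdown H3K27ac peaks under 3000 bp. H3K27me3 of the control overlapped 533 (6.19%, 5.69 to 6.72%), against a background of 6.22%. Shared peaks had the mark in 61.9% (61.1 to 62.6%) in the knockdown and 6.23% (5.87 to 6.61%) in the control. Control-only peaks had it in 43.0% (42.1 to 44.0%) in the knockdown and 10.2% (9.68 to 10.8%) in the control. Within the knockdown, then, the knockdown-only H3K27ac peaks were under H3K27me3 less often than the other H3K27ac peaks, while in the control the 2 knockdown sets stood level. These counts say nothing of the overall level of the mark, since the H3K27me3 list covered 19.5 Mb in the knockdown and 4.68 Mb in the control. With the knockdown list cut to its strongest peaks so that it covered as much as the control list, H3K27me3 of the knockdown overlapped 6.78% of the knockdown-only peaks and 9.81% of the shared peaks.

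Narrow peaks meet another peak less readily, so the centre of each peak was also read within classes of width. In the class of 200 bp to under 400 bp the centre lay in H3K27me3 of the knockdown in 26.7% (25.2 to 28.3%) of the knockdown-only, 45.7% (44.2 to 47.1%) of the shared and 32.8% (31.2 to 34.4%) of the control-only peaks. From 400 bp to under 800 bp the shares were 26.8, 45.4 and 32.4%, and under 200 bp 24.7, 44.6 and 27.1%. The gap between knockdown-only and shared peaks thus remained at like width. In H3K27me3 of the control the shares from 200 bp to under 400 bp were 4.78% (4.08 to 5.57%), 4.49% (3.92 to 5.13%) and 6.99% (6.13 to 7.92%).

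The gap also remained at like position, counted by at least 1 bp of overlap and with widths not matched. Median widths of knockdown-only and shared peaks were 348 and 608 bp near a gene end. They were 313 and 467 bp deeper inside genes and 291 and 418 bp outside. The part of width in the size of these gaps was not tested. With a gene end inside or within 500 bp, 35.3% of the knockdown-only and 63.7% of the shared peaks overlapped H3K27me3 of the knockdown. Deeper inside genes the values were 32.8 and 60.1%, and more than 500 bp outside any protein-coding gene 36.8 and 62.8%. On X they were 28.0 and 52.4%, and on the other arms 35.8 and 63.1%. In the control the share varied more by position than between the 2 sets. More than 500 bp outside protein-coding genes, H3K27me3 overlapped 11.4% of the knockdown-only and 14.5% of the shared peaks, and near a gene end 3.50 and 3.83%.

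**Figure D3:**
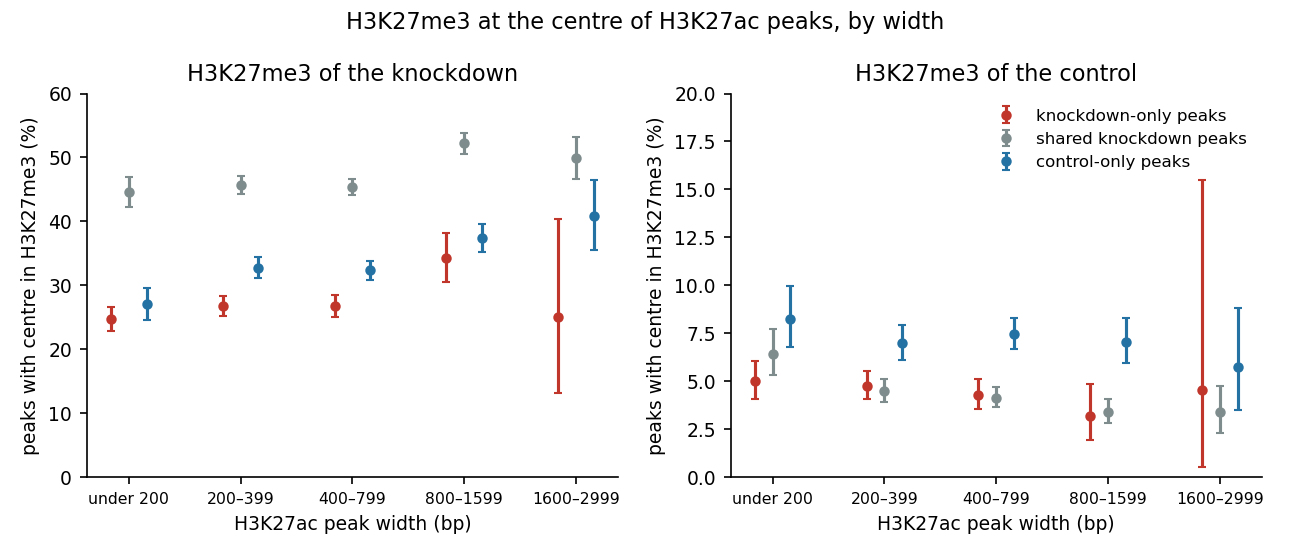
Share of H3K27ac peaks whose centre lay in a H3K27me3 peak (vertical axes, %, 0 to 60 left and 0 to 20 right), by width class in bp, for H3K27me3 of the knockdown (left) and of the control (right). Points are shares and bars 95% exact binomial intervals; in the knockdown panel the knockdown-only points (24.7 to 34.3%) lie below the shared points in all 5 width classes.

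By H3K27me3 the knockdown-only peaks fell into 4 classes: 2598 overlapped it in the knockdown alone (30.2%), 359 in both genotypes (4.17%), 174 in the control alone (2.02%) and 5479 in neither (63.6%). Median folds of H3K27ac were alike, at 2.12, 2.11, 2.10 and 2.12. Their places were not: 50.1% (44.9 to 55.4%) of the 359 and 58.6% (50.9 to 66.0%) of the 174 overlapped a gene span. For the 2598 and the 5479 the shares were 74.4% (72.6 to 76.0%) and 74.6% (73.4 to 75.7%). More than 5 kb from any protein-coding gene lay 29.2% (24.6 to 34.2%) of the 359 and 16.1% (11.0 to 22.4%) of the 174. There the 2598 and the 5479 had 13.1% and 11.7%.

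The 10 peaks of highest H3K27ac fold among the 359 with H3K27me3 in both genotypes chose the genes named next. The first was at Syb, a synaptobrevin gene, and Csgalnact (3.07), with 140 bp of its 491 bp under H3K27me3 in the knockdown and 432 bp in the control. At lbl, the ladybird late gene of muscle and nerve cell fate, a peak of 152 bp (2.52, 3R:21428291-21428442) was under H3K27me3 over its whole width in both. The same held for a peak of 648 bp (2.48, 3R:29570015-29570662), 4771 bp from Dr, the msh gene of the dorsal neuroectoderm. Near E5, a homeobox gene, a peak of 637 bp (2.47) was covered over 637 bp in the knockdown and 392 bp in the control. For the BarH1 gene B-H1 the values were 202 and 151 bp of 202 bp (2.47), and for hth, which encodes a cofactor of Hox proteins, 260 and 318 bp of 318 bp (2.47). At ssp3 a peak of 526 bp (2.60) was fully covered in both, as was one of 139 bp (2.50) 4955 bp from sbb. The peaks at CG34367 (2.59) and CG12986 (2.50) were covered over 218 and 220 of 237 bp, and over 636 and 630 of 636 bp, in the knockdown and the control.

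In the class with H3K27me3 in the knockdown alone, Hmgs, botv (3.38), simj and Cdk4, the kinase partner of cyclin D (3.31, 103 of 141 bp), had the highest folds. The actin-binding gene bif (3.23, 641 of 662 bp) came next, followed by a peak 6403 bp from Tom, an inhibitor gene of Notch signalling (3.23, all 440 bp), GckIII (3.21) and aph-1, a gamma-secretase gene (3.17). Where the control alone had H3K27me3, the first was Grip163, of the gamma-tubulin ring complex (3.21, 113 of 302 bp). The temporal factor gene pdm2 (2.61, 136 of 148 bp) and the axon guidance receptor gene robo2 (2.75, 63 of 155 bp) were also among the first 8.

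Counted by gene, 4542 of 13922 genes (32.6%) had a knockdown-only peak over the gene span or up to 500 bp off. Of these, 3614 also had control H3K27ac there, and 928 (6.67%, 6.26 to 7.09%) had none. A shared peak can still reach into the 500 bp beside such a gene when its overlap with a control peak lies farther out, as at Drice. The 928 genes were short, with a median length of 1.39 kb against 2.16 kb for all genes, and 803 of them had 1 such peak. Genes with H3K27ac only in the control were also short, with a median of 1.58 kb. For the 3614 genes the median was 6.67 kb. On X lay 27.4% (24.5 to 30.4%) of the 928, against 15.8% of all genes and 15.3% (13.5 to 17.3%) of the 1448 genes with H3K27ac only in the control. H3K27me3 covered at least 50% of the gene body in 112 of the 928 in the knockdown (12.1%, 10.04 to 14.3%), against a background of 15.5% of all genes, and in 15 in the control (1.62%, 0.907 to 2.65%), against 2.04%. For the 1448 the shares were 14.1% in the knockdown and 3.94% in the control.

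Long genes held the most knockdown-only peaks. Myo81F, a myosin gene of 1966 kb in the proximal part of 3R, held 36, and bru3, an RNA-binding protein gene of 281 kb, held 26. Then came kirre (23), the RNA-binding protein gene Rbp6 (18), and with 16 each the matrix metalloprotease gene Mmp2, Mur2B and hth. Gfrl, Pzl and SKIP held 15 each. Per length the order differed: Mmp2 had 2.20, Gfrl 1.41 and hth 1.21 knockdown-only peaks per 10 kb, whereas bru3 had 0.924, kirre 0.584 and Myo81F 0.183. In hth, H3K27ac covered 15.7 kb in the knockdown and 12.9 kb in the control. H3K27me3 covered 20.9 and 9.32 kb, so both marks had the greater cover in the knockdown. For H3K27me3 this held for the whole lists, which covered 19.5 Mb in the knockdown and 4.68 Mb in the control. In Mmp2 the H3K27ac values were 10.5 and 12.2 kb, and those of H3K27me3 8.95 and 1.57 kb.

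The genes were next read by 21 lists, for which the share of genes with a knockdown-only peak and no control H3K27ac is set beside the 6.67% of all genes. Mitochondrial ribosomal protein genes had 10 of 73 (13.7%), among them mRpL37 (fold of the peak 3.09), mRpL34 (2.64) and mRpL41 (2.43). Cytoplasmic ribosomal protein genes had 8 of 92 (8.70%), with RpL17 (3.27), RpL10 (2.42) and RpL9 (2.31). Proteasome subunits had 3 of 48 (6.25%) and oxidative phosphorylation subunits 4 of 80 (5%), both near the background. Of the 8 genes of the chaperonin that folds actin and tubulin, 5 had a knockdown-only peak (62.5%, against 32.6% of all genes). Of these, CCT4 and CCT6 had no control H3K27ac (25% of the list). For any knockdown-only peak, however, the first 4 of these lists stood below the 32.6% of all genes, with 16 of 73 (21.9%), 20 of 92 (21.7%), 11 of 48 (22.9%) and 14 of 80 (17.5%). The median gene lengths of these 4 lists, from 0.909 to 1.38 kb, were below the 2.16 kb of all genes, and that of the chaperonin list was 2.49 kb.

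**Figure D4:**
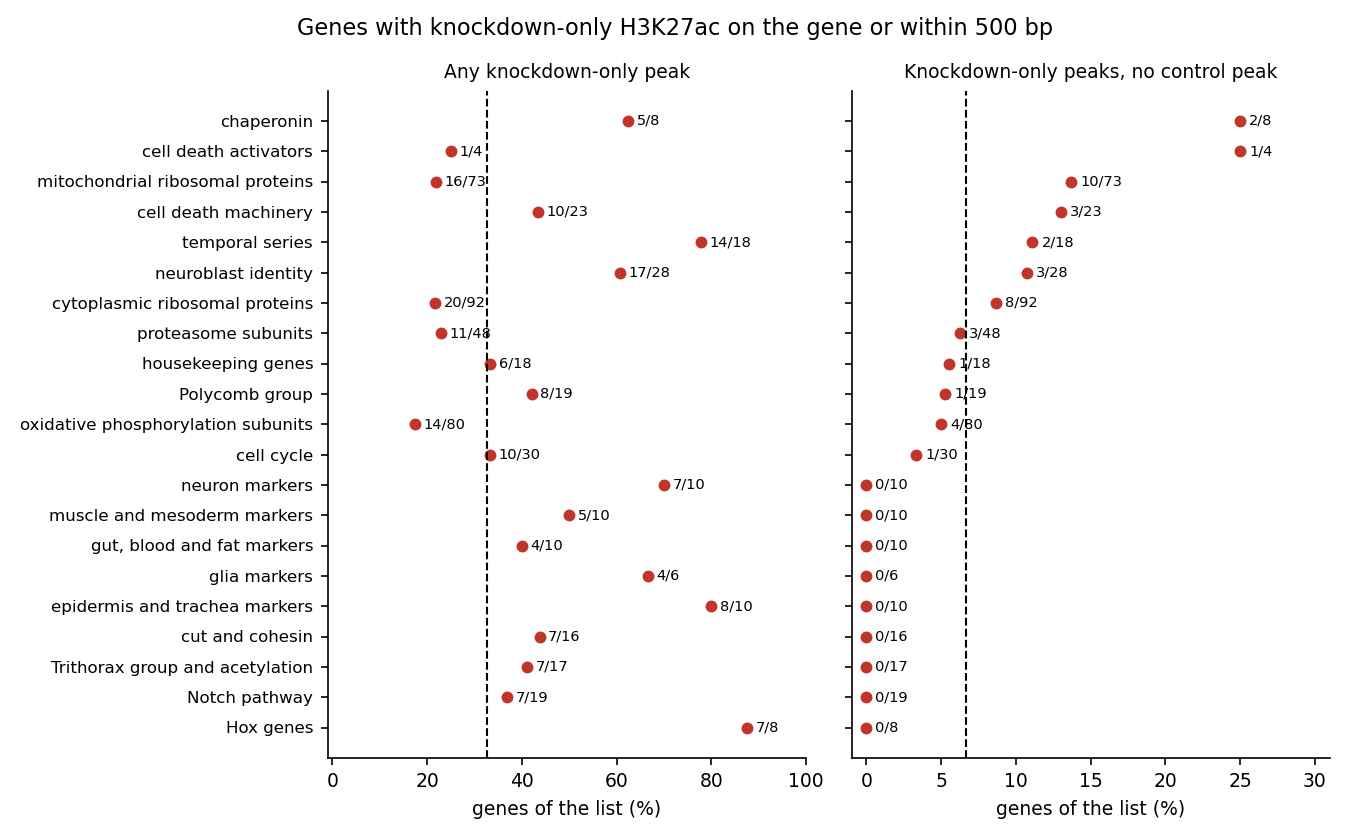
Share of the genes of each list (horizontal axes, %) with a knockdown-only H3K27ac peak over the gene or up to 500 bp off (left), and with such peaks and no control H3K27ac peak there (right); numbers beside the points are genes over genes in the list. Dashed lines mark all protein-coding genes (32.6% left, 6.67% right), and mitochondrial ribosomal protein genes stand at 13.7% on the right.

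In the neuroblast identity list, 17 of 28 genes (60.7%, median gene length 3.79 kb) had a knockdown-only peak, against 32.6% of all genes. Of these, par-6, pon and ase had no control H3K27ac (10.7% of the list, against 6.67% of all genes). At par-6, a polarity gene of the apical neuroblast cortex, the 2 peaks (X:17703430-17703859, fold 2.64, and X:17704883-17705276, fold 2.06) lay 2014 and 3467 bp from the nearest control peak. The first had 360 of its 430 bp under H3K27me3 in the knockdown and the second had none, and the control had no H3K27me3 at either. Of the adaptor gene pon, which carries Numb to the basal side, 3 peaks reached a fold of up to 2.38, and of the proneural gene ase 1 peak had a fold of 2.13. At nerfin-1, a gene of early neuron differentiation, a peak of 794 bp (2.52) lay 264 bp beyond the gene and had no H3K27me3 in either genotype. The temporal series list had 14 of 18 genes with a knockdown-only peak (77.8%, median length 18.8 kb). Of these, tll and slp2 had no control H3K27ac (11.1% of the list).

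Other lists of long genes were likewise above the background, the 32.6% of all genes, for any knockdown-only peak. Epidermis and trachea markers had 8 of 10 (median length 13.5 kb), neuron markers 7 of 10 (20.8 kb), glia markers 4 of 6 (7.09 kb), muscle and mesoderm markers 5 of 10 (26.4 kb), and gut, blood and fat markers 4 of 10 (15.0 kb). In none of these 5 marker lists did a gene have a knockdown-only peak and no control H3K27ac. Among chromatin regulators, 8 of 19 Polycomb group genes (42.1%) had a knockdown-only peak. Of these, Sce alone had no control H3K27ac (5.26% of the list, against 6.67% of all genes). Sce encodes the RING ubiquitin ligase of Polycomb repressive complex 1, and its peak had a fold of 2.52 and 225 bp. Jarid2, a partner of Polycomb repressive complex 2, had a peak of 158 bp with a fold of 3.00, all of it under H3K27me3 in the knockdown and none in the control. Trithorax group and acetylation genes had 7 of 17 (41.2%), and Notch pathway genes 7 of 19 (36.8%, near the background). In neither list did a gene have a knockdown-only peak and no control H3K27ac. Cell cycle genes had 10 of 30 (33.3%), near the background. Of these, PCNA, the sliding clamp of DNA replication, alone had no control H3K27ac (3.33% of the list, against 6.67% of all genes). Its peak of 480 bp had a fold of 2.46 and no H3K27me3 in either genotype. The housekeeping list had 6 of 18 (33.3%), also near the background.

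Of the cell death machinery, 10 of 23 genes had a knockdown-only peak (43.5%, against 32.6% of all genes). Of these, Drice, bsk and Cyt-c-p had no control H3K27ac (13.0% of the list, against 6.67% of all genes), and the median gene length was 3.75 kb. The effector caspase gene Drice had a peak of 940 bp on the gene (fold 2.50, 3R:29799927-29800866), and the peak of 540 bp on its neighbour Rnb (3.53, 3R:29798735-29799274) lay within 500 bp of it, with control H3K27ac 1425 and 233 bp away. Neither had H3K27me3 in the knockdown or the control. The Jun kinase gene bsk had a peak of 124 bp, the narrowest width of the knockdown list, with a fold of 2.98. Among the 4 cell death activators, hid, rpr and skl had none, so 1 of 4 had a knockdown-only peak (25%, against 32.6% of all genes). This gene, grim, had no control H3K27ac (25% of this short list, against 6.67% of all genes). At grim, a peak of 146 bp (2.37, 3L:18303881-18304026) lay 10786 bp from the nearest control H3K27ac peak and was under H3K27me3 over its whole width in both genotypes.

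Of 8 Hox genes, which give segments their identity, 7 had knockdown-only peaks (87.5%, against 32.6% of all genes), 31 in all, and each of the 7 also had control H3K27ac. The list has the longest genes of the 21, with a median of 30.6 kb against 2.16 kb for all genes. Abd-B had 5, of which the 3 strongest (folds 2.25, 2.24 and 2.24) had H3K27me3 over 462 of 462, 382 of 382 and 228 of 228 bp in the knockdown, and over 462, 382 and 200 bp in the control. Ubx had 8, with 447 of 447 bp of the strongest (2.21) under H3K27me3 in both genotypes. At abd-A the stronger of 2 (2.07) had 281 of 299 bp under it in the knockdown and 148 bp in the control. In Antp, by contrast, the 3 strongest of 10 (2.54, 2.45 and 2.26) were fully under H3K27me3 of the knockdown. H3K27me3 of the control did not overlap them, though it covered 21.7 kb of the gene. The Dfd peak (2.47) had 95 of 279 bp under H3K27me3 in the knockdown and none in the control. At pb the 3 strongest of 4 had 504, 169 and 0 bp under it in the knockdown and 0, 0 and 199 bp in the control.

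In the cut and cohesin list, of a median gene length of 4.40 kb, 7 of 16 genes had a knockdown-only peak (43.8%, against 32.6% of all genes), and each of them had control H3K27ac on the gene, except sunn, where it lay beside the gene within 500 bp. The knocked-down gene ct (X:7608428-7678859) had 3, of 634 bp (fold 2.40), 187 bp (2.25) and 372 bp (2.13), which lay 18577, 11304 and 915 bp from the nearest control peak. H3K27me3 of the knockdown overlapped all 3, over 574, 116 and 54 bp, and H3K27me3 of the control none. The cohesin subunit genes SMC3 (381 bp, 2.04) and vtd (341 bp, 2.15) had 1 each. The vtd peak was under H3K27me3 over its whole width in the knockdown alone, and that of SMC3 in neither genotype. SMC1, SA1 and Nipped-B, the cohesin loader gene, had none. At N, the Notch receptor gene, 6 peaks were found, the strongest (2.25) 69 bp from control H3K27ac.

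**Figure D5:**
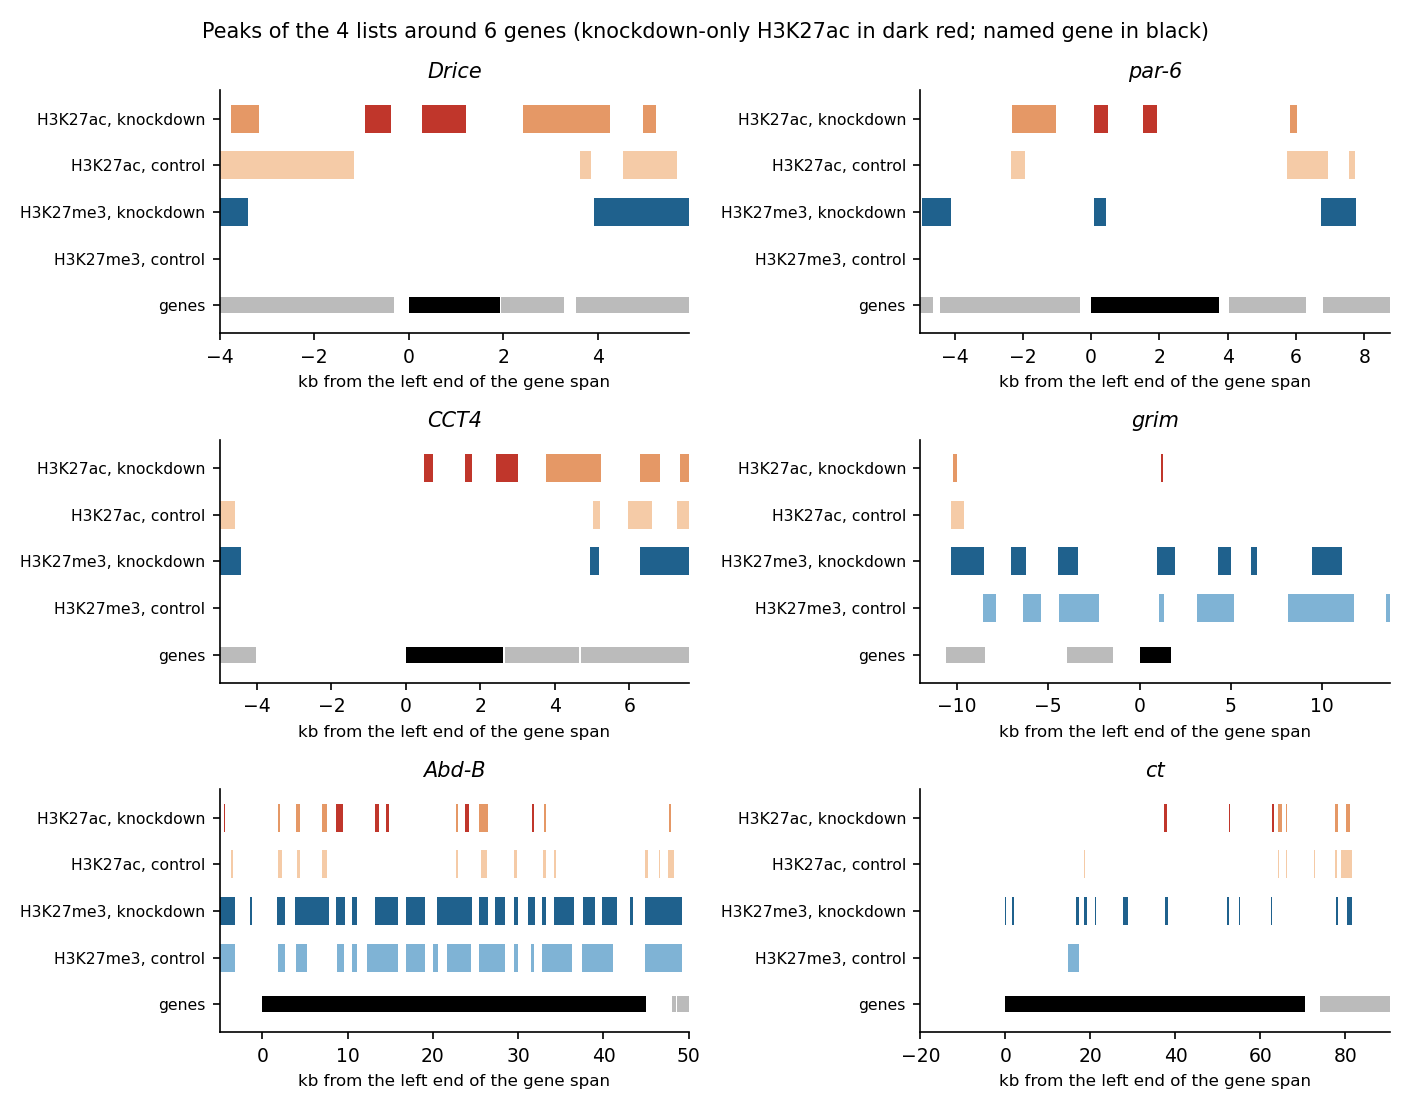
Peaks of the 4 lists around 6 genes, with distance in kb from the left end of each gene span on the horizontal axes and 1 row per list; dark red marks knockdown-only H3K27ac peaks, lighter orange other H3K27ac peaks, blue H3K27me3, black the named gene and grey its neighbours. At Drice, par-6 and CCT4 no control H3K27ac lies on the gene, at grim and Abd-B the knockdown-only peaks overlap H3K27me3 of both genotypes, and at ct that of the knockdown alone.

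The peaks farthest from protein-coding genes lay in stretches poor in such genes. On X, peaks 431042, 429710 and 330340 bp from ATbp had folds of 1.97, 2.19 and 1.59. H3K27me3 overlapped the second over 219 bp in the knockdown and 215 bp in the control, the third over its whole 199 bp in both and the first in neither. On 3L, the peak 354326 bp from CG40228 (1.87) lay 4 bp from a control H3K27ac peak and had no H3K27me3, and the one 341185 bp from CG42598 (1.99) had H3K27me3 over 557 of 564 bp in the knockdown and none in the control.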

How the data were processed

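Per the labels' protocols, sorted, fixed nuclei were digested (micrococcal nuclease, 15 U) and then sonicated (3 min), input DNA was the control, and libraries were sequenced as single ends. The submitters' processing notes name dm6 and the tools Bowtie2, FastQC, SICER and MACS2. For versions, thresholds and duplicate reads, the sources used here give nothing. The authors deposited 1 MACS2 broad peak list per library. Per the deposited lists, each peak has a fold enrichment (a ratio over background), a -log10 p, a -log10 q and a score of 10 times the -log10 q. The lists hold no counts, so the depth is unknown. Nuclease digestion depends on how open chromatin is, which can change the yield of fragments.

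Peaks of each list on 6 arms were intersected with Python 3.11.15, numpy 2.4.6 and pandas 2.3.3, and intervals came from scipy 1.17.1. Coordinates are 1-based. Overlap and distance were checked on simulated lists. Where no peak is listed the mark may still be present below the threshold. Gene spans (13922 protein-coding) came from a RefSeq table of the same assembly, release 6, which has no strand, so the planned share near gene starts was not computed. Of 250 symbols in the lists, 248 matched, and families were taken by symbol prefix, paralogs included. No sequence was used here.

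Named genes were fixed ones (ct, cell death, cohesin and Hox genes, N), the nearest genes of the peaks ranked by fold, -log10 q, H3K27me3 class or distance, the genes with the most peaks, and up to 4 genes of each list by fold. Other list members and the runs were chosen after their values were seen. Members and lists were chosen with earlier results of these data known. Alternatives changed the peak thresholds, the overlap rule, the gene extension and the H3K27me3 lists.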

Additional observations from a re-analysis of the deposited data

Results flagged for a closer look

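Outside the 6 arms, the Y chromosome carried 194 H3K27me3 peaks in the knockdown list, above the 79 of the control list. As a share of its own list, which is longer in the knockdown, Y held 1.03% of the H3K27me3 peaks in the knockdown and 1.83% in the control, so the order is the other way round. It was pointed out because it lies in data that no comparison above used, and with 1 library each it has no replicate check. The H3K27ac lists held 251 peaks on Y in the knockdown and 294 in the control. Of the knockdown H3K27ac peaks on Y, 82 were under 3000 bp and overlapped no control peak, and these are not among the 8610 described above.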

How the results depend on the processing

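Of 38 alternatives, 20 stayed within the interval of a reported share or within 1.5 times a reported count. With -log10 q of at least 2 for the knockdown H3K27ac peaks, 1308 knockdown-only peaks were left, and 214 genes had such a peak and no control H3K27ac. Of these peaks 75.8% lay on a gene and 5.58% overlapped control H3K27me3. Of the knockdown H3K27ac peaks on X at this bound, 31.3% were knockdown-only, which is called the share on X below. With no control peak within 500 bp, 71.2% of the knockdown-only peaks lay on a gene and 33.1% overlapped knockdown H3K27me3. The share on X was then 39.6%, against 27.4% on the other arms. Counting peaks with under 50% of their bases in control peaks gave 75.4% on a gene and 41.1% with knockdown H3K27me3. The share on X was then 60.7%, against 45.3% on the other arms. When non-coding genes were added, 76.1% lay on a gene. Knockdown H3K27me3 overlapped 35.6% when peaks narrower than 156 bp were left out, an alternative chosen after seeing the data. It covered at least 50% of the bases in 26.5%, overlapped 10.6% when its own -log10 q had to reach 2, and 6.78% at the covered length of the control list. For control H3K27me3 the first 2 of these gave 4.52% and 1.79%. In each setting in which it was computed, knockdown H3K27me3 was found at a greater share of shared peaks, from 9.81 to 65.2%. The share on X, computed for the settings of the H3K27ac peaks alone, was above that of the other arms in each of them. No paired analysis was possible because each group has 1 library. The share within 500 bp of a gene start was not run. Depth is unknown, and a peak absent from the control list may be one that its depth did not reach.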
